A study of Sus scrofa with 5 samples.

Results

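The miR-130 and miR-301 seed family was followed across pig blastocysts, ES-like cells, embryoid bodies and fetal fibroblasts. Members were the miRNAs named ssc-miR-130a, ssc-miR-130b, ssc-miR-301 or ssc-miR-454, with or without an arm ending, in the deposited table of reported miRNAs. The table held 411 mature names, and 3 of them were members. miR-130a, miR-130b and miR-301 each had 1 precursor row and no entry for a separate arm, and miR-454 had 0 rows and was not analysed here.

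Small RNA of 5 samples was sequenced to compare pluripotent with differentiated pig cells and to find miRNAs of each cell type. BL_1 and BL_2 were blastocysts (BLs) sampled on day 7 after parthenogenetic activation, in which an oocyte develops without sperm, so both carry maternal chromosomes only. ES-like cells were colonies derived from blastocysts and grown on mitomycin-C-treated mouse embryonic fibroblasts with stem cell factor and basic fibroblast growth factor. PEBs were embryoid bodies formed from these ES-like cells in hanging drops without cytokines, and PFFs were cultured fetal fibroblasts of mixed breed. The BLs had 2 libraries and ES-like cells, PEBs and PFFs had 1 each, so a difference between any of the cultured cell types has no replicate check. The counts do not separate pig reads from reads of mouse feeder cells.

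A miRNA guides the silencing complex to messenger RNAs through its seed, a short run of bases near its 5′ end, and miRNAs with the same seed form a family with overlapping targets. In mammals this family is known for targets such as PPARG, a regulator of fat cell formation, and it has been studied in blood vessels, fibrosis and tumours. miR-130a and miR-130b are encoded at different loci and differ at a few bases outside the seed, and miR-301 carries the seed on a more distant body. How reads that match more than one member were counted is not stated in the sources used here, so the split between miR-130a and miR-130b carries that uncertainty.

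The BL_1 library held 113743 mature miRNA reads, BL_2 2782150, the ES-like library 6372500, the PEB library 15849954 and the PFF library 27071931. The study's read summary lists the totals of the ES-like and PFF libraries the other way round from these column sums. Libraries were taken by the labels of the table's columns, and the column labelled PFF had the highest sum of the fibroblast-associated miRNAs. Levels are given as RPM, reads per 1000000 mature miRNA reads, so a single read was worth 8.79 RPM for BL_1 and 0.0369 RPM for PFFs. One miRNA took 52.3% of the PFF reads (miR-21) and 32.5% and 29.6% of the reads in BL_1 and BL_2 (miR-371-5p), and such a share lowers the RPM of every other miRNA in that library. Of the 9 pluripotency-associated miRNAs listed, 4 had a row in the table, and miR-302a to miR-302d and miR-367 were not analysed here. miR-371-5p was at 324635 and 296148 RPM in BLs and at 30.9 RPM in ES-like cells. The other 3 were higher in ES-like cells, with 41258 RPM of miR-363, 7277 of miR-20b and 3246 of miR-106a, against at most 422, 87.9 and 26.4 RPM in BLs. The 6 mesenchymal and fibroblast-associated miRNAs summed to 703675 RPM in PFFs, 320001 in PEBs, 212625 in ES-like cells and at most 70192 in BLs. miR-21 made up 522808 RPM of the sum in PFFs, and miR-199a-3p, miR-199a-5p and miR-214 were higher in PEBs (80420, 31819 and 774 RPM) than in PFFs (52517, 23636 and 516 RPM), an order that turns under TMM scaling. The 4 liver- and endoderm-associated miRNAs summed to 107997 RPM in ES-like cells, 57390 in PEBs, 18.5 in PFFs and 1961 and 1397 in BL_1 and BL_2. The blood cell-associated list summed to between 3.88 and 123 RPM and the skeletal muscle-associated list to between 191 and 2445 RPM in the 5 libraries.

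The family was a low-abundance family in every library, and it was most abundant in ES-like cells and PEBs. BL_1 gave 4 reads of the 3 members together, BL_2 71, ES-like cells 1297, PEBs 2054 and PFFs 697. The summed level was 204 RPM for ES-like cells (95% exact Poisson interval 193 to 215), 130 RPM for PEBs (124 to 135), and 25.7 RPM for PFFs (23.9 to 27.7). BL_1 stood at 35.2 RPM (9.58 to 90.0) and BL_2 at 25.5 RPM (19.9 to 32.2). ES-like cells and PEBs stood above both BL libraries and PFFs on the RPM scale. On the TMM scale the totals were 128 for ES-like cells, 115 for PEBs, 42.7 for PFFs, 33.0 for BL_1 and 29.4 for BL_2, so that PFFs, level with BL_2 in RPM, stood above it. Intervals on reads cover counting error only, because PCR-amplified reads are not independent molecules, and they do not cover differences between cultures or embryo pools.

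miR-130a had the most reads of the members in each of the 5 libraries, although BL_1 had too few reads to set it apart. BL_1 gave 3 reads of it, BL_2 61, ES-like cells 772, PEBs 1087 and PFFs 431. ES-like cells had 121 RPM (113 to 130), PEBs 68.6 RPM (64.6 to 72.8), BL_1 26.4 RPM (5.44 to 77.1), BL_2 21.9 RPM (16.8 to 28.2) and PFFs 15.9 RPM (14.5 to 17.5). The order in RPM was ES-like cells, PEBs, BLs and PFFs. The interval of BL_1 overlapped those of BL_2, PEBs and PFFs, so only BL_2 places the blastocysts below PEBs. The order of BLs and PFFs changed with the scaling, as TMM-scaled levels were 26.4 for PFFs, 25.3 for BL_2 and 24.7 for BL_1. The BL mean was 24.2 ± 3.15 RPM (SD, n = 2). Among the miRNAs with a read, it ranked 147th of 309 for ES-like cells, 168th of 306 for PEBs, 181st of 315 for PFFs, 154th of 215 for BL_1 and 179th of 275 for BL_2.

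miR-130b had the order of miR-130a among the cultured cells on the RPM scale, and its levels in BLs were in the range of PFFs. BL_1 gave 1 read of it, BL_2 10, ES-like cells 457, PEBs 845 and PFFs 165. ES-like cells had 71.7 RPM (65.3 to 78.6), PEBs 53.3 RPM (49.8 to 57.0), BL_1 8.79 RPM (0.223 to 49.0), PFFs 6.09 RPM (5.20 to 7.10) and BL_2 3.59 RPM (1.72 to 6.61). The 2 high libraries were again ES-like cells and PEBs, and the intervals of BL_1, BL_2 and PFFs overlapped. The BL mean of 6.19 ± 3.68 RPM (SD, n = 2) rests on 11 reads in all.

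miR-301 was the least abundant member and was found in the 3 cultured cell types but in neither BL library. ES-like cells gave 68 reads of it, PEBs 122 and PFFs 101, which is 10.7 RPM (8.29 to 13.5), 7.70 RPM (6.39 to 9.19) and 3.73 RPM (3.04 to 4.53). BL_1 and BL_2 had 0 reads, and a limit of 3 reads is 26.4 RPM in BL_1 and 1.08 RPM in BL_2. The exact Poisson intervals reach somewhat higher, to 32.4 RPM in BL_1 and 1.33 RPM in BL_2. At the RPM of ES-like cells, PEBs or PFFs, the depth of BL_2 would give 29.7, 21.4 or 10.4 reads of miR-301. The depth of BL_1 would give 1.21, 0.876 or 0.424 reads, so absence from BL_1 was not detectable at this depth and the low level in BLs rests on BL_2 alone. In bulk samples fewer cells with a miRNA and less of it per cell cannot be told apart.

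**Figure D1:**
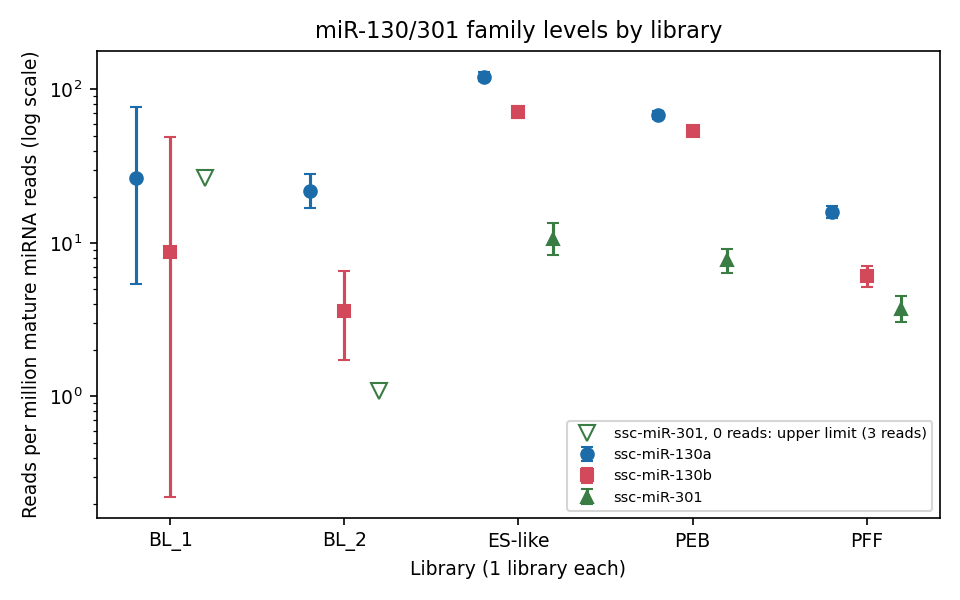
Levels of miR-130a (circles), miR-130b (squares) and miR-301 (triangles) in the 5 libraries, in RPM on a log scale. Bars are 95% exact Poisson intervals and open triangles are the limits set by 0 reads. miR-130a is the highest member in each library, and in ES-like cells and PEBs miR-130a and miR-130b stand at 53.3 to 121 RPM.

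Between cultured cell types, the levels in ES-like cells were compared with PFFs first, as the cells most and least rich in the family. On the RPM scale miR-130a was 7.61-fold higher in ES-like cells than in PFFs (95% exact interval for counting error 6.75 to 8.58). The ratio was 11.8 for miR-130b (9.83 to 14.1) and 2.86 for miR-301 (2.07 to 3.93). All 3 members were thus more than 2-fold above PFFs, a size that 53.0% of the 279 miRNAs tested also passed (those above 5 reads in 3 or more libraries). The ratios of miR-130a, miR-130b and miR-301 lay above those of 76.7%, 83.2% and 57.0% of these miRNAs.

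The size of this difference depended on how libraries were scaled. The median log2 ratio of all 279 miRNAs between ES-like cells and PFFs was 1.15 on the RPM scale and -0.25 after scaling by the trimmed mean of M-values (TMM), which sets libraries level on their bulk of miRNAs. On the TMM scale the ratios of ES-like cells to PFFs were 2.89 for miR-130a (2.56 to 3.26), 4.47 for miR-130b (3.73 to 5.37) and 1.09 for miR-301 (0.787 to 1.49). miR-130a and miR-130b remained more than 2-fold higher under TMM, under DESeq2 size factors and after removal of the most abundant miRNA of each library. Under TMM, 28.7% of the 279 miRNAs passed this size. miR-301 did not pass 2-fold under any of these, and its TMM-scaled level (6.72 for ES-like cells, 6.83 for PEBs, 6.19 for PFFs, per 1000000 TMM-scaled reads) was nearly level across the cultured cells.

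PEBs stood between these cell types on the RPM scale. The ratio of PEBs to PFFs was 4.31 for miR-130a (3.85 to 4.83), 8.75 for miR-130b (7.39 to 10.4) and 2.06 for miR-301 (1.57 to 2.71). All 3 members passed 2-fold, as 45.5% of the 279 miRNAs did, with a median log2 ratio of 0.79. On the TMM scale, where that median was -0.11, the ratios were 2.30, 4.68 and 1.1, so 2 members passed 2-fold beside 33.0% of the miRNAs. The levels of the liver- and endoderm-associated list and the share of miR-21 differed between PFFs and the other cultured cells as given above, and their part in these differences was not tested.

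ES-like cells and the PEBs made from them differed by less than 2-fold in each of the 3 members. The ratio of ES-like cells to PEBs was 1.77 for miR-130a (1.61 to 1.94), 1.35 for miR-130b (1.20 to 1.51) and 1.39 for miR-301 (1.01 to 1.88) on the RPM scale. None of the 3 members passed 2-fold, against 23.7% of the 279 miRNAs. The ratios of miR-130a, miR-130b and miR-301 lay above those of 69.2%, 59.1% and 59.9% of these miRNAs. On the TMM scale miR-130a was at 1.25 (1.14 to 1.38), whereas miR-130b at 0.955 (0.850 to 1.07) and miR-301 at 0.984 (0.720 to 1.33) were on the other side of 1 with intervals that include it. The full order of ES-like cells above PEBs above PFFs was met by 3 members and by 39.8% of the 279 miRNAs on the RPM scale. On the TMM scale 1 member, miR-130a, and 17.9% of the miRNAs met it. Under DESeq2 size factors and after removal of the most abundant miRNA, all 3 members met it, beside 71 and 76 of the 279 miRNAs.

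**Figure D2:**
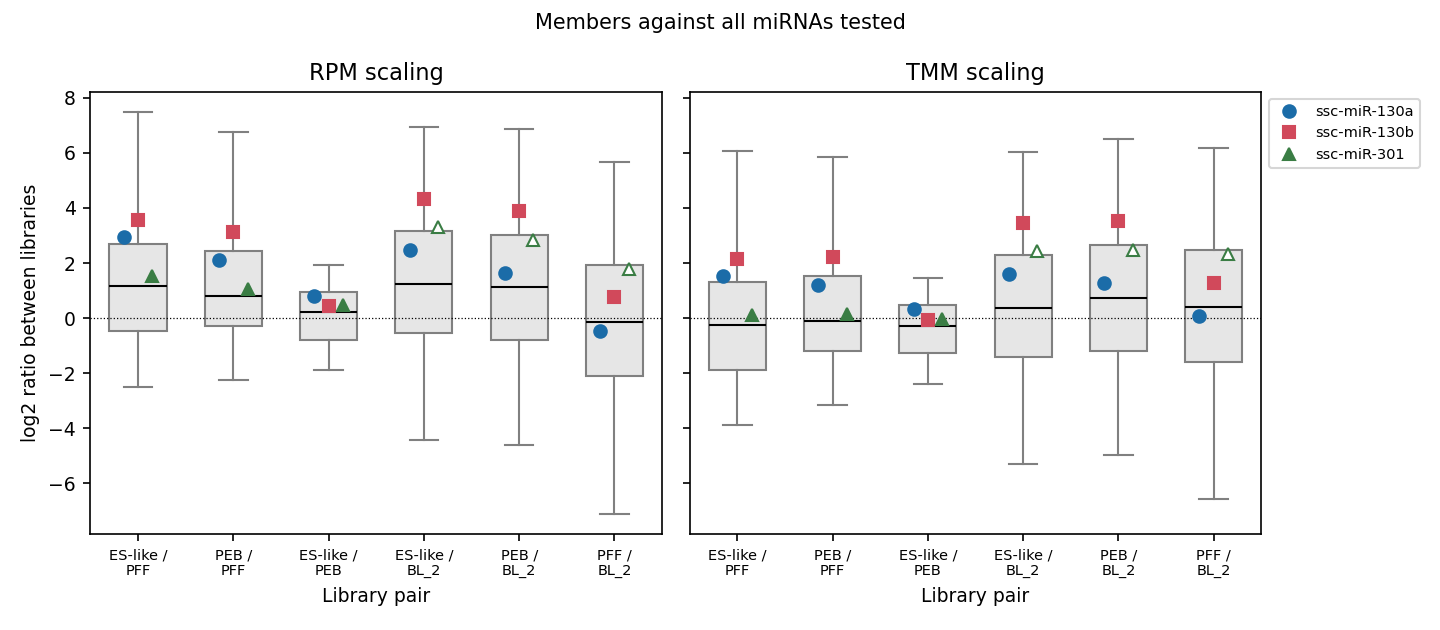
Log2 ratios between pairs of libraries for the 3 members, beside the 279 miRNAs tested (boxes, quartiles with the median as a line; whiskers, the middle 90%), on the RPM scale and after TMM scaling. Open triangles are ratios of miR-301 against a limit of 3 reads, where BL_2 had 0 reads. miR-130b lies above the upper quartile in the ratios of ES-like cells and PEBs to PFFs and to BL_2 on both scales, while ES-like cells against PEBs stays within the box for all members.

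The cultured cells were next compared with BL_2, the deeper blastocyst library. ES-like cells exceeded BL_2 by 5.53-fold for miR-130a (4.25 to 7.29) and 20.0-fold for miR-130b (10.8 to 41.9) on the RPM scale. For miR-301 the ratio was 9.90 against the limit of 3 reads in BL_2, and its exact interval began at 7.83. These 3 members passed 2-fold together with 53.4% of the 279 miRNAs. The TMM-scaled values were 3.02-fold, 10.9-fold and, against the same limit, 5.41-fold (exact interval from 4.28). Against BL_1, with 3 reads of miR-130a and 1 of miR-130b, the RPM ratios of ES-like cells were 4.59 (1.57 to 22.3) and 8.16 (1.46 to 323).

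For PEBs against BL_2 the RPM ratios were 3.13 for miR-130a (2.42 to 4.12) and 14.8 for miR-130b (8.03 to 31.0). That of miR-301 was 7.14 against the limit of 3 reads, with an exact interval from 5.72. All 3 members passed 2-fold, as did 52.3% of the miRNAs tested. The RPM ratios of PEBs to BL_1 were 2.60 for miR-130a (0.887 to 12.6) and 6.06 for miR-130b (1.09 to 240). The interval of miR-130a against BL_1 thus included 1. PFFs and BL_2 differed less in the miR-130 pair than ES-like cells or PEBs and BL_2 did. miR-130a had a PFF to BL_2 ratio of 0.726 (0.554 to 0.966) on the RPM scale and of 1.04 (0.798 to 1.39) on the TMM scale, so its direction changed with the scaling. miR-130b had a ratio of 1.70 (0.899 to 3.6). For miR-301 it was 3.46 against the limit of 3 reads, with an exact interval from 2.76. Against BL_1 the RPM ratios of PFFs were 0.604 for miR-130a (0.205 to 2.94) and 0.693 for miR-130b (0.123 to 27.5), so for miR-130b both BL libraries lay on different sides of PFFs. Thus 1 of 3 members passed 2-fold on the RPM scale, against 35.1% of the 279 miRNAs, and on the TMM scale miR-130b did so as well, at 2.44-fold (1.29 to 5.18), beside 40.9% of the miRNAs.

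The contrast of miR-130a with miR-130b was then read within each library, where it does not depend on scaling. miR-130b made up 43.7% of the pair's reads for PEBs (95% Clopper-Pearson interval 41.5 to 46.0), 37.2% for ES-like cells (34.5 to 40.0), 27.7% for PFFs (24.1 to 31.5) and 14.1% for BL_2 (6.97 to 24.4). For BL_1 it was 25% (0.631 to 80.6). The highest share was in PEBs and the lowest in BL_2, and BL_1 with 4 reads gives no placement. In terms of reads, miR-130a exceeded miR-130b by 6.10 to 1 for BL_2 (3.10 to 13.4), 2.61 to 1 for PFFs (2.18 to 3.14), 1.69 to 1 for ES-like cells (1.5 to 1.9) and 1.29 to 1 for PEBs (1.17 to 1.41).

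All 10 pairs of libraries were compared by the ratio of miR-130b to miR-130a in one library over that in the other, with exact intervals that were not adjusted for the number of pairs. The interval excluded 1 in 6 pairs, which are those without BL_1. Relative to miR-130a, miR-130b was 2.03-fold higher in PEBs than in PFFs (1.65 to 2.50) and 1.55-fold higher in ES-like cells than in PFFs (1.24 to 1.93). ES-like cells had 0.762 times the ratio of PEBs (0.656 to 0.884). BL_2 had 0.277 times the ratio of ES-like cells (0.125 to 0.552), 0.211 times that of PEBs (0.0958 to 0.418) and 0.429 times that of PFFs (0.191 to 0.869). The 4 pairs with BL_1 had intervals that include 1, the widest from 0.0352 to 28.1 against BL_2. These intervals describe single libraries and not cell types.

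Over libraries, the log2 ratio of miR-130a to miR-130b reads, with 0.5 added to each count, was 2.55 for BL_2, 1.38 for PFFs, 1.22 for BL_1, 0.76 for ES-like cells and 0.36 for PEBs. The BL mean was 1.89 ± 0.94 (SD, n = 2) and that of the cultured cells was 0.83 ± 0.51 (SD, n = 3), and BL_1 lay below PFFs, so the groups overlap. PEBs were made from the ES-like cells, so 2 of the 3 cultured libraries share a source and are not independent, here and in the comparisons by edgeR. The difference of 1.05 gave p = 0.3 in a two-sided exact permutation test over the 10 possible groupings, where the smallest p the design allows is 0.1. Leaving out BL_2 took the difference to 0.39, with BL_1 and its 4 reads as the only blastocyst library, and leaving out BL_1 took it to 1.72.

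**Figure D3:**
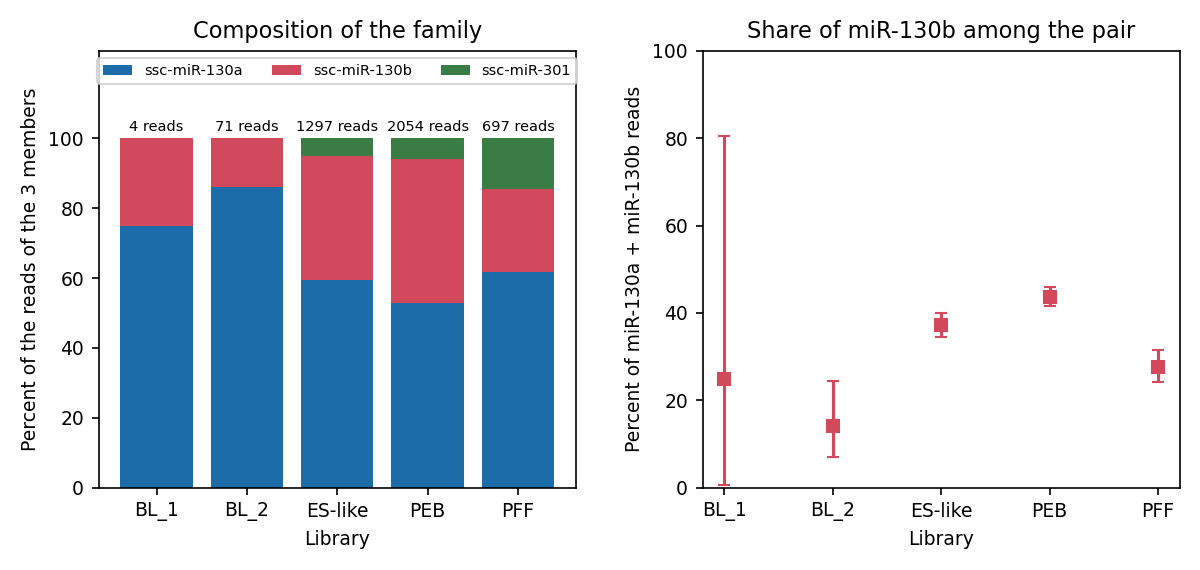
Left, percent of the family's reads that came from miR-130a, miR-130b and miR-301 in each library, with the family's reads above each bar. Right, percent of miR-130b among the reads of miR-130a and miR-130b with 95% Clopper-Pearson intervals, from 14.1% in BL_2 to 43.7% in PEBs.

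The share of miR-301 ran differently from that of miR-130b. It was 5.24% of the family's reads in ES-like cells (4.09 to 6.60) and 5.94% in PEBs (4.96 to 7.05), but reached 14.5% in PFFs (12.0 to 17.3). In BL_2 it was 0 of 71 reads, which allows a share of up to 5.06% by the exact interval. In reads, there were 18.1 of the miR-130 pair per read of miR-301 in ES-like cells, against 15.8 in PEBs and 5.90 in PFFs. Among the 3 cultured cell types, PFFs thus had the lowest level of the family and the largest share of miR-301, and BL_1 with 0 of 4 reads allows a share of up to 60.2%.

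To see whether a member was specific to a cell type, the study's 2-fold rule was applied in the upward direction, with BLs as the mean of both libraries. It was applied to RPM and to TMM-scaled values, whereas the study used levels normalized by Tag Count Comparison. ES-like cells had the highest RPM of each member and PEBs the next, with ratios of 1.77 for miR-130a, 1.35 for miR-130b and 1.39 for miR-301. None of the 3 members was more than 2-fold above every other cell type in RPM, against 41.9% of the 279 miRNAs. On the TMM scale none met it either, against 43.0% of the miRNAs, and PEBs were the highest cell type for miR-130b and miR-301 by 1.05-fold and 1.02-fold.

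Tests over groups of libraries were limited to 2 comparisons. Only BLs had 2 libraries, so every other group mixed cell types in place of replicates. PEBs and the ES-like cells they were made from stood on opposite sides of the first comparison, a link that its fit left out. Pluripotent libraries (BL_1, BL_2 and ES-like cells) were compared with differentiated ones (PEBs and PFFs) by edgeR's quasi-likelihood test with Benjamini-Hochberg adjustment over all 279 miRNAs. miR-130a had a log2 fold change of -0.02 (SE 1.11, adjusted p = 0.989), miR-130b of -0.50 (SE 1.41, adjusted p = 0.933) and miR-301 of -1.12 (SE 1.73, adjusted p = 0.840). No member passed the threshold, as was the case for all miRNAs (0 of 279, or 0.0%), of which 29 had an unadjusted p below 0.05. DESeq2 called 14 miRNAs and limma called 0, with no member among them. Each group held a library rich and a library poor in the family, with 204 RPM for ES-like cells and 25.5 RPM for BL_2 on one side and 130 RPM for PEBs and 25.7 RPM for PFFs on the other, so the groups overlap.

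BLs were also compared with the 3 cultured libraries, a split that follows library depth, since the BL libraries were the shallowest, so that depth and cell type cannot be told apart. miR-130a had a log2 fold change of -1.12 (SE 0.84, adjusted p = 0.336 in edgeR), close to the median of -1.23 over all miRNAs. miR-130b had -2.71 (SE 1.18, adjusted p = 0.141), with 33.0% of the miRNAs below it. Neither passed the threshold in this comparison, which called 33 of 279 miRNAs, or 11.8%. For miR-301 the edgeR adjusted p was 0.0573, and its fitted fold change depends on the prior count because both BL libraries were at 0. It passed the filter on low counts through the 3 cultured libraries alone. Its direction was thus fixed beforehand, and this p-value is no separate support. Without PFFs, miR-130b passed with -2.93 and an adjusted p of 0.0336 in edgeR, a fit that called 89 of 229 miRNAs, or 38.9%. Over the 10 alternatives its adjusted p ranged from 0.0336 to 0.496, and 1 of them passed.

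Relatives whose seed matches that of the family when shifted by a base or more were examined as the next group. These are miR-19a and miR-19b, which are encoded in the miR-17-92 clusters, and miR-148a-3p, miR-148b-3p and miR-152, a family known for repression of DNA methyltransferase 1. miR-148a-3p was the most abundant, with 160140 RPM for ES-like cells, 59744 for PEBs, 15316 for PFFs, 22155 for BL_1 and 32734 for BL_2. Its ratio of ES-like cells to PFFs was 10.5 on the RPM scale and 3.97 on the TMM scale, where miR-130b had 11.8 and 4.47. miR-19b had 3743 RPM for ES-like cells, 1910 for PEBs, 320 for PFFs, 141 for BL_1 and 651 for BL_2. miR-19a had 254, 234, 31.7, 0 and 18.0 RPM in the order of these libraries. miR-19b had its highest level in ES-like cells on the RPM and TMM scales, whereas miR-19a had 160 in ES-like cells and 208 in PEBs on the TMM scale.

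miR-152 had another order than the family, with 2168 RPM for PFFs, 1576 for PEBs, 1103 for ES-like cells, 26.4 for BL_1 and 24.1 for BL_2. Its ratio of ES-like cells to PFFs was 0.509 (0.496 to 0.521) on the RPM scale and 0.193 (0.188 to 0.198) on the TMM scale. That of miR-148b-3p was 2.28 (2.23 to 2.33) and turned to 0.866 (0.847 to 0.884) under TMM. Of these 5 relatives, 1 was lower in BLs than in cultured cells in edgeR (miR-152, log2 fold change -6.16, SE 1.16, adjusted p = 0.0241), and 0 passed between pluripotent and differentiated libraries. This 1 of 5 stands beside the 11.8% called over all miRNAs. The call of miR-152 was lost without PEBs (edgeR adjusted p = 0.0785), with a log2 fold change of -6.29. It was also lost without BL_1 or BL_2, where a single blastocyst library was left. The log2 fold changes there were -5.42 and -6.08, so the fold stayed about as large. The other 4 relatives had adjusted p from 0.109 to 0.400 in the comparison of BLs in edgeR. Among them, miR-19a was called lower in BLs by DESeq2 (adjusted p = 0.0198) and by edgeR without PFFs (adjusted p = 0.00852), fits that called 35.8% and 38.9% of all miRNAs tested.

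The miRNAs most like each member were sought among 273 mature names with at least 10 reads in at least 3 libraries, by the mean absolute difference of log2(RPM + 10) over the 5 libraries after each miRNA's own mean was subtracted. For miR-130a these were miR-30e-5p (0.190), miR-130b (0.255) and miR-30c-5p (0.302). For miR-130b they were miR-181c (0.231), miR-130a (0.255) and miR-99b (0.258). miR-130a and miR-130b were thus each second on the other's list. With a pseudocount of 1 RPM, miR-130b ranked 22nd for miR-130a and miR-130a 5th for miR-130b, and with 100 RPM each was first on the other's list.

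miR-301 was most like miR-497 (0.0586), of which both BL libraries had 0 reads, ES-like cells 81, PEBs 134 and PFFs 83. miR-22-5p (0.126) and miR-339-3p (0.179) came next. From the side of the miR-130 pair, miR-301 ranked 26th for miR-130a and 52nd for miR-130b. Likeness describes 5 libraries that share their depth and scaling with every miRNA ranked, and for miR-301, which stays at or below 10.7 RPM, the pseudocount of 10 RPM flattens the profile. With a pseudocount of 1 RPM, 1 of 3 names stayed for miR-130a, 0 for miR-130b and 1 for miR-301, so the names depend on it.

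**Figure D4:**
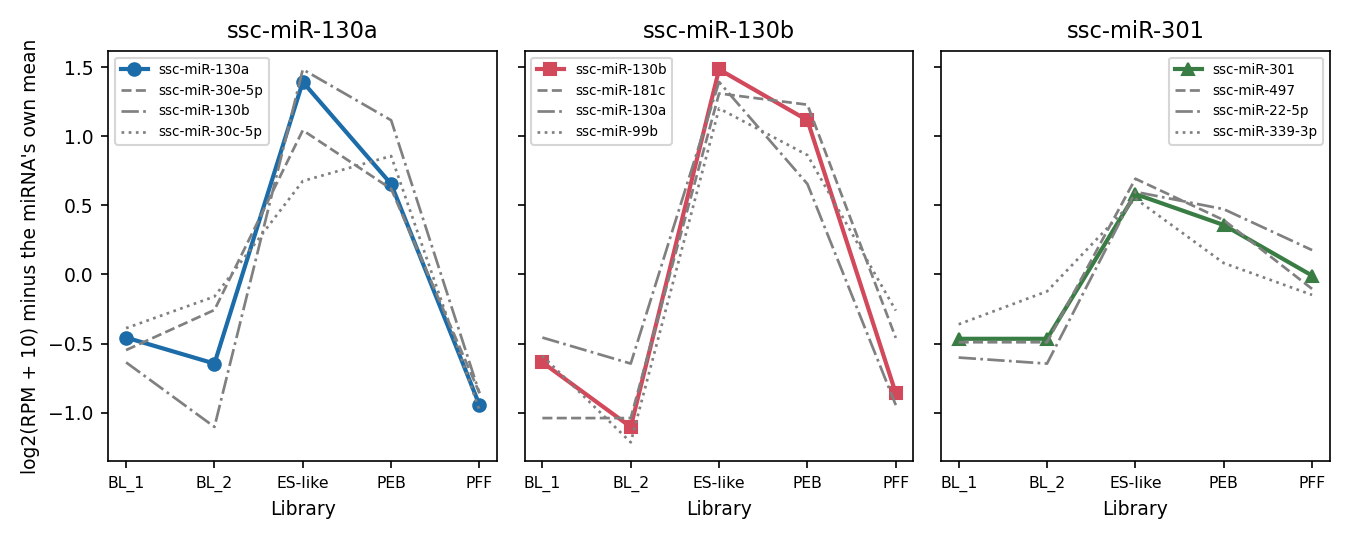
Profiles of the 3 members (coloured) and of the 3 miRNAs most like each (grey) as log2(RPM + 10) minus the miRNA's own mean over the 5 libraries. miR-130a and miR-130b peak in ES-like cells and are low in PFFs and BLs, and miR-301 has a flatter profile with both BL libraries at 0 reads.

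The genes next to the members were looked up in the RefSeq annotation of Sscrofa11.1, a later build than that of the counts, for neighbours only. MIR130A lies between YPEL4 and LOC100514563. MIR130B lies within LOC100155534, between PPIL2 and SDF2L1. For both, 0 other annotated miRNAs were found within 10 kb, and miR-301 had no entry there.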

How the data were processed

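Small RNA libraries of 5 pig samples were analysed, and groups were taken from the submitters' labels. Per the study's methods and the submitters' processing notes, the authors removed short reads and reads without adapter, trimmed adapters (cutadapt 1.10), aligned with Bowtie 1.1.1 to Sscrofa10.2 and used miRDeep2 to count the miRBase entries. The deposited counts are raw reads per pair of mature miRNA and precursor, and they were summed per mature name. A library with few reads has wide intervals, from 113743 reads in BL_1 to 27071931 in PFFs. RPM is reads per 1000000 mature miRNA reads. The deposited table of predicted miRNAs was not used here.

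The quasi-likelihood test of edgeR 4.0.16 (R 4.3.3) was run with TMM scaling and Benjamini-Hochberg adjustment (threshold 0.05) on 279 of 411 names, those above 5 reads in 3 or more libraries. All 3 members passed this filter, miR-301 through the 3 cultured libraries alone. The sources used here do not say whether BL_1 and BL_2 came from separate embryo productions, so p-values measure only the spread between libraries, which may be technical and includes cell type. DESeq2 1.42.0, limma 3.58.1 (voom), no filter, library totals, the largest precursor row, other pseudocounts and leaving out each library were alternatives. The edgeR step was run on simulated data as a check of the code, which does not show how well it performs on these libraries. The SE given for an edgeR fit is the absolute log2 fold change divided by the square root of the F statistic, because the test itself reports none. Ratios of counts have exact conditional intervals and levels exact Poisson intervals (95%). The limit for 0 reads is 3 counts.

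Named miRNAs are every member, 5 relatives with a shifted seed, miRNAs within 10 kb, the 3 most like each member and miRNAs from the lists associated with a cell type. The members and lists were chosen with earlier results of these data known. Python 3.11.15, numpy 2.4.6, pandas 2.3.3, scipy 1.17.1 and matplotlib 3.10.9 were used.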

Additional observations from a re-analysis of the deposited data

How the results depend on the processing

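Depth limits every statement on BL_1, where 1 read is worth 8.79 RPM, and leaving out a library shows how few libraries carry the calls. Between pluripotent and differentiated libraries, 0 miRNAs passed in edgeR, 14 in DESeq2, and 0 to 16 when each library was left out, the 16 without ES-like cells. Between BLs and cultured libraries, 33 passed in edgeR, 100 in DESeq2, 51 without a filter on low counts and 57 with library totals. When each library was left out the number ran from 0 to 89, with 0 without BL_1 or BL_2, 3 without PEBs, 16 without ES-like cells and 89 without PFFs. limma gave 23 and the largest precursor row 42. Without ES-like cells both comparisons set BLs against PEBs and PFFs, so the 16 calls and the values of the members are those of a single fit.

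The log2 fold change of miR-130a between pluripotent and differentiated libraries was -0.02 in edgeR and turned to 0.41 in DESeq2, 0.051 in limma and 0.45 with library totals, and it ranged from -0.90 to 0.79 when each library was left out. That of miR-130b ranged from -2.59 to 1.11. The cause was not tested, and adjusted p was at least 0.219 for miR-130b and 0.5 for miR-130a in each of the 10 alternatives. Under TMM the ratios of ES-like cells to PEBs turned to 0.955 for miR-130b and 0.984 for miR-301. In the comparison of BLs with cultured cells, miR-130a and miR-130b kept their direction in each of their 10 alternatives. Of these, 1 crossed the threshold, for miR-130b without PFFs. The direction of miR-301 in its 7 alternatives was fixed beforehand, because both BL libraries had 0 reads. All alternatives reuse the same libraries and are not independent. The difference in the miR-130a to miR-130b log2 ratio kept its direction in all 7 alternatives, with values from 0.39 without BL_2 to 1.72 without BL_1. miR-301 could not be fitted without ES-like cells, PEBs or PFFs, because it then failed the filter on low counts. No paired analysis was possible because replicate numbers exist for BLs only.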
